A study of Mus musculus with 115 samples.

Results

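The response of inguinal fat to estradiol was measured in mice that carry a transgene of Sry, the testis-determining gene. The members are the 18 adipose arrays labelled XXSry or XY-Sry with an estradiol or a blank capsule, of 115 arrays in the whole series and 55 of adipose tissue. Of the 9 estradiol arrays, 4 were XXSry and 5 were XY-Sry. Of the 9 blank arrays, 5 were XXSry and 4 were XY-Sry. All animals were on a C57BL/6J background, from a cross known as FCG. In this model Sry is missing from the Y chromosome (written XY-) and is supplied as a transgene, so XXSry and XY-Sry mice both develop testes but differ in their sex chromosomes. Gonads were removed at 75 days of age in every group, blanks included, and a Silastic capsule was implanted at once. The estradiol capsule held 50 µg of 17beta-estradiol in sesame oil, whereas the blank capsule held only adhesive, and the fat was collected 3 weeks later. A further 10 arrays of XXSry and XY-Sry fat, 5 of each, came from mice with a capsule of 5 mM testosterone. The mice had therefore had testes until 75 days of age, and no array of these groups came from a mouse with gonads at the time of collection. Fat of XX and XY- mice, which lack Sry and develop ovaries, was used for comparison. It gave 3 blank and 5 estradiol arrays of XX and 5 of each treatment of XY-. Liver of XXSry and XY-Sry mice, with 20 blank and estradiol arrays, was also used. The labels do not state whether each array is a separate mouse, so p-values rest on the spread between arrays. For fat that spread was estimated within groups over all 55 adipose arrays.

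Estradiol acts mainly through the nuclear receptor encoded by Esr1, which binds DNA at oestrogen response elements, often as a pair of short inverted arms, or is tethered by other factors. White fat under the skin contains adipocytes, stromal progenitor cells, endothelium and macrophages, and in female mice the inguinal depot also holds the mammary gland. The groups were compared to read the response of this depot where little mammary epithelium was to be expected.

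RNA was hybridised to 1-colour Illumina BeadChips. Values are normalised signals on a log2 scale, and a difference of 1 is a change of 2-fold. A probe was tested if it was detected (detection p under 0.01) in at least 3 adipose arrays, which left 14636 probes for 10741 genes. A gene is read from its brightest tested probe. It counts as called if limma's p, after Benjamini-Hochberg adjustment across the probes tested, is below 0.05. The 18 arrays had raw median signals of 137 to 202 and detected 41.2% to 47.2% of the 25697 probes. Their median correlation with the other arrays of their group was 0.906 to 0.972, and no pair exceeded 0.987, so none was taken as a repeat of another. Xist, the RNA of the inactive X, was at 7.16 to 8.81 in the 9 XXSry arrays and at 4.84 to 5.67 in the 9 XY-Sry arrays. The Y-linked gene Eif2s3y was at 8.19 to 9.63 in the XY-Sry arrays and at 4.51 to 6.51 in the XXSry arrays, where 2 blank arrays, at 6.41 and 6.51, stood above the rest.

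The tissue was checked against its markers. Adipoq, which encodes the adipocyte hormone adiponectin, was at 13.81 to 14.37 in the blank arrays and in the estradiol arrays alike. The mean level of the 17 tested mammary epithelium markers was 6.46 ± 0.62 (SD, n = 9) in blank and 6.61 ± 0.81 (SD, n = 9) in estradiol arrays. In mice without Sry, which develop ovaries, it was 8.71 ± 0.74 (SD, n = 8) in blank and 9.54 ± 0.35 (SD, n = 10) in estradiol arrays. The epithelial signal was therefore lower with Sry but not absent, since Krt8, a keratin of luminal cells, was detected in 8 of 9 blank and 9 of 9 estradiol arrays. Krt5, a keratin of basal cells, was detected in 0 of 9 and 1 of 9, and Elf5, a luminal factor, in 1 of 9 and 0 of 9. The depot also varied in other tissues. The mean level of 15 skeletal muscle markers ranged from 8.58 to 12.61 in blank and from 7.90 to 12.48 in estradiol arrays, and that of 13 lymph node markers from 5.42 to 10.36 and from 5.21 to 9.81. Liver markers reached 10.54 in 1 array, XXSry B replicate 1.

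Estradiol changed 1484 of 14636 probes (10.1%) against blank, 876 upward (5.99%) and 608 downward (4.15%). At least a 2-fold change was seen at 393 of the probes that rose and 115 of those that fell. Counted by gene, 682 of 10741 rose (6.35%) and 523 fell (4.87%). The 9 estradiol arrays lay wholly above the 9 blank arrays at 174 genes (1.62%) and wholly below them at 82 (0.763%). The genes with the largest increases encode an enzyme, a membrane protein and secreted or surface proteins, led by Akr1cl and Mmd2. The largest decreases were in a cytochrome P450, Cyp2f2, and in Cidea, a lipid droplet protein abundant in thermogenic fat. In bulk tissue, fewer cells of a type and less RNA per cell cannot be told apart.

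Akr1cl is a member of the aldo-keto reductase 1C family, whose enzymes reduce steroids and other carbonyl compounds. Its signal was 4.93 at the lowest, 6.79 at the median and 8.02 at the highest of the 9 blank arrays. In the 9 estradiol arrays it was 12.41, 13.10 and 13.71. Every estradiol array was thus more than 4 log2 units above every blank array. The difference was 6.24 ± 0.38 (SE), or 75.8-fold, with an adjusted p of 1.94e-17 (limma). Akr1cl was detected in 6 of 9 blank arrays and in all estradiol arrays. Within the pair of slides that carry both treatments, with 2 arrays of each treatment per slide, it was 5.63 and 5.89. A second, dimmer probe of Akr1cl rose by 1.95.

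Mmd2, a membrane protein of the progestin and adipoQ receptor family, was at 4.82, 5.90 and 9.01 (lowest, median, highest) in blank and at 11.07, 12.52 and 12.82 in estradiol arrays. The difference was 6.13 ± 0.42 (SE; adjusted p = 1.4e-15, limma), or 70.2-fold. It was detected in 5 of 9 blank arrays. The highest blank array, an XY-Sry one, remained below the lowest estradiol array, which was XXSry.

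Adamts19, a secreted metalloprotease, was at 4.64, 4.93 and 6.30 in blank and at 8.74, 9.51 and 10.13 in estradiol arrays, a difference of 4.28 ± 0.22 (SE; adjusted p = 9.01e-20, limma). It was detected in only 2 of 9 blank arrays, so most blank values are background and no fold is given. Plod2, which hydroxylates lysines of collagen, was at 7.31, 7.75 and 8.18 in blank and at 10.31, 11.40 and 11.78 in estradiol arrays. It rose by 3.53 ± 0.20 (SE), or 11.6-fold. Ngfr, the p75 neurotrophin receptor, was at 7.68, 8.18 and 9.08 and at 11.30, 11.80 and 12.19, and rose by 3.42 ± 0.29 (SE), or 10.7-fold. The treatments did not overlap at any of these 3 genes.

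Il1rl1, the receptor for interleukin 33, was more spread among the treated mice. It was at 4.75, 5.38 and 6.45 in blank and at 6.95, 8.92 and 12.09 in estradiol arrays, a difference of 3.73 ± 0.64 (SE; adjusted p = 3.54e-05, limma). It was detected in 1 of 9 blank arrays. Mast cells are among the cells that express it, and the mean level of 5 mast cell markers was 8.14 to 9.87 in blank and 8.51 to 10.20 in estradiol arrays. All 5 had positive differences, of which 1 passed, Cma1 (mast cell chymase) at 1.02 (adjusted p = 0.0484, limma), a call lost with slide as a block, and the part of mast cells in the rise of Il1rl1 was not tested. Another 3 genes among the 12 largest increases were not well above background in any blank array and were detected in all 9 estradiol arrays, so that their fold is a lower bound. Each bound sets the estradiol mean against the dimmest signal detected on the blank arrays. Hpca, a calcium sensor known from neurons, was at least 5.84-fold higher, Rpp25, a subunit of ribonuclease P, at least 4.73-fold, and Prss35, a member of the serine protease family, at least 3.98-fold. Their measured means went from 5.36 to 8.60, from 5.02 to 8.29 and from 4.89 to 8.04. The adjusted p was 2.13e-15, 2.5e-15 and 2.64e-18 (limma). Nxnl2, a thioredoxin-like protein, rose by 3.59 ± 0.25 (SE), the water channel gene Aqp5 by 3.21 ± 0.48 (SE) and Spon1, a matrix protein, by 2.95 ± 0.31 (SE). Nxnl2 and Spon1 were each detected in 1 of 9 blank arrays. Of the 12, only Aqp5 overlapped between the treatments, while 174 of all 10741 genes (1.62%) lay wholly higher under estradiol. The 12 were chosen by their difference in these same arrays.

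Cyp2f2, a cytochrome P450 best known from lung, was at 12.12, 12.65 and 13.30 in blank and at 8.68, 9.56 and 10.13 in estradiol arrays. It fell by 3.15 ± 0.24 (SE; adjusted p = 4.81e-14, limma), which is 8.88-fold, and by 3.93 and 2.28 within the slides with both treatments. Cidea fell by 3.15 ± 0.46 (SE; adjusted p = 2.15e-06, limma), from 11.33, 12.17 and 12.83 to 7.56, 8.96 and 9.85. No blank array was as low as any estradiol array at either gene. Hsd11b1, the enzyme that regenerates active glucocorticoid from its inactive keto form, fell by 2.11 ± 0.18 (SE; adjusted p = 8.04e-13, limma), from 11.72, 12.52 and 13.21 to 9.92, 10.33 and 10.95. Of its other 3 probes, 2 were called with decreases of 2.08 and 2.11 and 1 was not, at -0.22. Ces1f, a carboxylesterase, fell by 1.98 ± 0.20 (SE), or 3.93-fold, with no overlap.

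The other decreases among the 12 largest were smaller. Syt12, of the synaptotagmin family, fell by 2.23 ± 0.27 (SE), Aspg, an asparaginase homologue, by 2.15 ± 0.53 (SE) and Acsm3, a medium-chain acyl-CoA synthetase, by 1.97 ± 0.34 (SE). Acot4, an acyl-CoA thioesterase, fell by 1.74 ± 0.30 (SE), Odf3l1 by 2.09 ± 0.27 (SE) and Lrtm1 by 2.0 ± 0.46 (SE). Anxa8, an annexin, and Ccno, a cyclin known from multiciliated cells, were not well above background in any estradiol array. Anxa8 was at least 2.12-fold higher in blank arrays (means 7.04 in blank and 5.14 in estradiol) and Ccno at least 1.92-fold. The treatments did not overlap at 9 of the 12 genes, Aspg, Lrtm1 and Anxa8 being the exceptions. Of all 10741 genes, 82 (0.763%) lay wholly lower under estradiol, and the 12 were chosen by their difference in these same arrays. With slide as a block, Aspg missed the threshold (adjusted p = 0.0533, limma), and the 11 others were called.

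**Figure D1:**
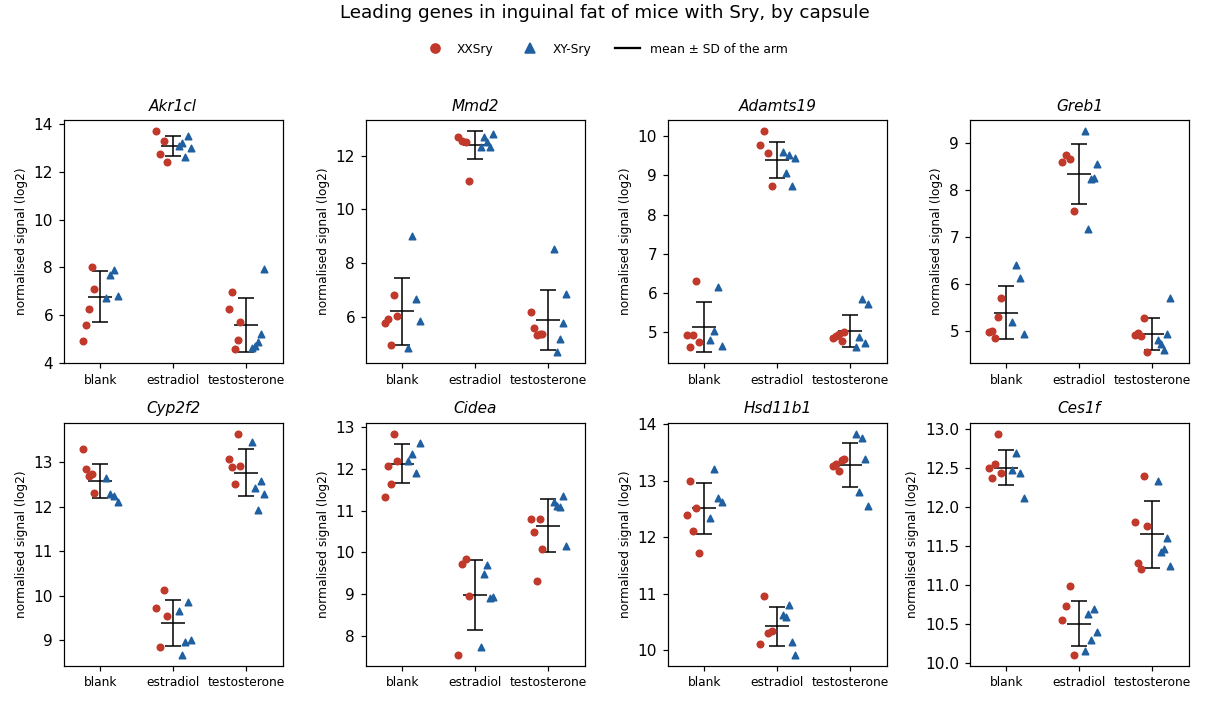
Normalised signal (log2) of 8 leading genes in each array of mice with Sry, by capsule. Circles are XXSry and triangles XY-Sry arrays, and bars give the mean and SD of 9 blank, 9 estradiol and 10 testosterone arrays. Akr1cl lies at 12.41 or above in every estradiol array and at 8.02 or below in every blank array, and Cyp2f2, Cidea, Hsd11b1 and Ces1f are lower in every estradiol array than in any blank one.

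The 250 bases before the annotated start of Akr1cl and Cyp2f2 are shown because these genes led the clearly measured increases and decreases, and because estradiol acts through a DNA-binding receptor. They are RefSeq sequences of GRCm38.p6, at chr1:65032760-65033009 (minus strand) for Akr1cl and chr7:27119705-27119954 (plus strand) for Cyp2f2, written 5′ to 3′ along the gene. Capitals mark a single arm of an oestrogen response element, GGTCA or TGACC.
Akr1cl: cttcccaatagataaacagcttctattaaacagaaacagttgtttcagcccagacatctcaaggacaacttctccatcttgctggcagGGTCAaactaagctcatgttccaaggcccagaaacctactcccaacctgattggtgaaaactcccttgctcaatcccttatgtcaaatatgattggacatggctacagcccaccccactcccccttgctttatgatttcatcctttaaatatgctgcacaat
Cyp2f2: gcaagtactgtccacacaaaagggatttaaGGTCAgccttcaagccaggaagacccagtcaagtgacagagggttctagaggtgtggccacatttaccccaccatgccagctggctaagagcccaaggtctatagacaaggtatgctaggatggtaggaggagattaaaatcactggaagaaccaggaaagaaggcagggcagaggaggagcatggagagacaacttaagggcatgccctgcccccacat
Each window holds 1 such arm, a match that is present in 35.2% of the 32851 promoter windows of this length searched on both strands. The full palindrome, GGTCA and TGACC with 3 bases between them, was in neither window, and 21 of all windows (0.0639%) held it. Of the 24 genes named above as the largest changes, 18 had a window in the table, 22 windows in all, and 0 held the palindrome. An arm was in 6 of the 12 windows of genes that rose and in 2 of the 10 of genes that fell. These matches are descriptions of letters in a short stretch and show no binding.

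Known estrogen-responsive genes differed among themselves. The median difference of 17 tested receptors and targets was 0.04, against -0.04 over all tested genes. Of them 2 rose (11.8%, against 6.35% of all genes) and 0 fell. The 2 were Greb1, a cofactor gene widely used as a reporter of estrogen receptor activity, and Ccn5, a secreted CCN family protein. Greb1 was at 4.85, 5.18 and 6.4 (lowest, median, highest) in blank and at 7.17, 8.56 and 9.26 in estradiol arrays, a rise of 2.93 ± 0.21 (SE; adjusted p = 3.31e-15, limma). It was detected in 2 of 9 blank arrays and in all estradiol arrays. All estradiol arrays were above all blank ones. Its 2 other probes rose by 1.04 and 2.95. Ccn5 rose by 2.61 ± 0.35 (SE), or 6.11-fold, without overlap. Pgr, the progesterone receptor, was detected in 0 of 9 blank and 1 of 9 estradiol arrays, and its difference of 0.47 ± 0.17 (SE) did not pass (adjusted p = 0.0689, limma). Esr1 was at 7.15, 8.64 and 9.53 in blank and at 7.62, 7.92 and 9.27 in estradiol arrays, a difference of -0.58 ± 0.26 (SE; adjusted p = 0.166, limma). With the marker covariates Esr1 was called lower, at -0.78 (adjusted p = 0.0182, limma). The treatments overlapped at both receptor genes.

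Enzymes of steroid metabolism were among the strongest members of any list. Of 15 tested steroid receptors and enzymes, 4 rose (26.7%, against 6.35% of all genes) and 1 fell (6.67%, against 4.87%). Beside Akr1cl, Akr1c18, which inactivates progesterone, rose by 1.39 ± 0.44 (SE; adjusted p = 0.0332, limma), Cyp7b1, an oxysterol and steroid hydroxylase, by 1.01 ± 0.32 (SE) and Srd5a3, of the steroid 5-alpha reductase family, by 0.48 ± 0.14 (SE). Probes of the Akr1c family can share signal between close copies. With slide as a block the counts were 2 up and 2 down, and Cyp7b1 was not called (adjusted p = 0.244, limma). Leaving out 1 array gave 1 to 4 up and 1 to 2 down. Hsd11b1 was the called decrease. Hsd11b2, which inactivates the glucocorticoid that Hsd11b1 restores, went the other way. It was not well above background in any blank array (mean 4.92 ± 0.17, SD, n = 9) and was detected in 8 of 9 estradiol arrays (mean 7.04 ± 0.55, SD, n = 9). It was at least 1.99-fold higher (adjusted p = 3.6e-14, limma). Hsd11b2 was in no list and is named for the difference between mice with and without Sry.

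Several genes of thermogenic fat fell. Of 14 tested brown and beige fat genes, 5 fell (35.7%, against 4.87% of all genes), 0 rose and 9 did not pass, with a median of -1.07. Besides Cidea these were Kcnk3, a potassium channel, at -1.54 ± 0.37 (SE), and Ppargc1a and Ppargc1b, coactivators of mitochondrial genes, at -1.22 ± 0.33 (SE) and -0.87 ± 0.29 (SE). Ppargc1a was not called with slide as a block (-0.83, adjusted p = 0.139, limma). Cox8b, a cytochrome oxidase subunit of brown fat and muscle, was the other, at -1.14 ± 0.29 (SE; adjusted p = 0.0066, limma), from 13.51, 13.73 and 14.15 to 11.52, 12.92 and 13.46. Cidea and Cox8b did not overlap between the treatments. Ucp1, the uncoupling protein that gives brown fat its heat, was detected in 6 of 9 blank arrays, where it ranged from 4.75 to 9.62, and in 0 of 9 estradiol arrays, at 4.59 to 5.80. The blank mean was at least 2.36-fold higher, but the fitted difference of -2.21 did not pass (adjusted p = 0.0982, limma), and the blank arrays differed widely. Muscle expresses several of these genes, and the muscle marker level was 11.18 ± 1.5 (SD, n = 9) in blank and 10.09 ± 1.88 (SD, n = 9) in estradiol arrays. With the muscle, lymph node and liver marker levels as covariates the list's count was again 5 down. Leaving out the 12 arrays with a muscle level over 10 left 2 blank and 4 estradiol arrays, where the list had 0 calls and Cidea was at -2.92 (adjusted p = 0.176, limma).

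Some genes of lipid handling fell and others rose. Of 15 tested lipolysis genes 5 fell (33.3%, against 4.87% of all genes) and 0 rose, with a median of -0.36. They were Adora1, the adenosine receptor that restrains lipolysis, at -1.32 ± 0.22 (SE), the receptors Hcar2 at -0.76 ± 0.20 (SE), Hcar1 at -0.65 ± 0.20 (SE) and Adrb3 at -0.71 ± 0.21 (SE), and Pnpla2, the lipase that starts triglyceride breakdown, at -0.36 ± 0.10 (SE). Adora1, Hcar1 and Hcar2 inhibit lipolysis and Adrb3 and Pnpla2 promote it. The count was 2 under median centring and 3 with slide as a block (where Adrb3 was at an adjusted p of 0.0718, limma). It was 0 without the 12 arrays of high muscle level and 1 without the 10 arrays with a lymph node level over 8. In the former fit Adora1 was at -0.97, Hcar2 at -1.01, Adrb3 at -0.70 and Pnpla2 at -0.58. Of 23 tested genes of fat uptake and storage, 5 fell (21.7%, against 4.87% of all genes) and 1 rose (4.35%, against 6.35%). The counts were 2 and 1 under median centring, and 0 and 0 without the arrays of high muscle level. Gpd1, which makes glycerol 3-phosphate, fell by 1.63 ± 0.28 (SE) without overlap, and Gpihbp1, which carries lipoprotein lipase into capillaries, by 1.09 ± 0.21 (SE). Gpam, the first acyltransferase of glycerolipid synthesis, rose by 1.31 ± 0.28 (SE). Of 15 fatty acid synthesis genes, 3 fell (20%, against 4.87% of all genes) and 1 rose (6.67%, against 6.35%). Elovl6, an elongase, fell by 1.55 ± 0.42 (SE), and Mlxipl, the transcription factor ChREBP, rose by 0.76 ± 0.24 (SE). Elovl6 and Mlxipl both missed the threshold with slide as a block (adjusted p = 0.0995 and 0.069, limma). Of 14 cholesterol synthesis genes only Insig1, which holds back that pathway, was called, at -1.61 ± 0.42 (SE). This share of 7.14% is near the 4.87% of all genes that fell.

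The mitochondrial genes that were called all fell. Of 17 fatty acid oxidation genes 4 fell (23.5%, against 4.87% of all genes) and 0 rose. They were led by Cpt2, which hands acyl groups to the matrix, at -0.60 ± 0.14 (SE). Of 32 respiratory chain genes 3 fell and 0 rose, between -0.32 and -0.45, which is 9.38% against 4.87% of all genes. A negative difference was found at 30 of the 32 and at 5927 of all 10741 genes, and leaving out 1 array gave 3 to 7 calls, the most without XY-Sry E replicate 2. Of 19 insulin and glucose genes 3 fell (15.8%, against 4.87% of all genes). Irs2, an insulin receptor substrate, fell by 0.67 ± 0.19 (SE), Akt2 by 0.96 ± 0.29 (SE) and the glucose transporter gene Slc2a1 by 0.46 ± 0.15 (SE). Irs2 was not called with slide as a block (adjusted p = 0.0936, limma), Slc2a1 lost its call in 12 and Akt2 in 3 of 18 fits that left out 1 array, and the list's count ran from 1 to 3, the fewest without XXSry E replicate 1. The counts for oxidation and for insulin and glucose were each 1 under median centring, and that for the respiratory chain was 0. Among 15 cell cycle genes the median was -0.20 and the lowest and highest differences were -0.50 and 0.20, none past the threshold.

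Secreted products of fat moved both ways, 3 of 18 upward (16.7%, against 6.35% of all genes) and 2 downward (11.1%, against 4.87%). Hp, haptoglobin, was at 11.38, 12.30 and 13.19 in blank and at 13.42, 14.02 and 14.43 in estradiol arrays, a rise of 1.78 ± 0.17 (SE; adjusted p = 4.64e-11, limma) without overlap. Metrnl, a secreted meteorin-like factor, rose by 1.24 ± 0.27 (SE), without overlap. Rbp4, the retinol carrier, fell by 1.70 ± 0.38 (SE) and Nrg4, a ligand known from brown fat, by 0.95 ± 0.23 (SE). Leptin (Lep), at 0.30 ± 0.24 (SE), and Adipoq, at -0.03 ± 0.10 (SE), did not pass. Of the 10 adipocyte markers 1 fell (10%, against 4.87% of all genes), Pnpla2, which is also in the lipolysis list, and the list's median was -0.26. Of 19 regulators of adipogenesis, Sfrp1 and Bmp7 rose (10.5%, against 6.35% of all genes) and Gata2 fell (5.26%, against 4.87%), shares near the background. Leaving out 1 array gave 0 to 3 calls, and Gata2 lost its call in 12, Sfrp1 in 8 and Bmp7 in 5 of 18 such fits.

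Most markers of macrophages rose. Of 11 tested, 9 rose (81.8%, against 6.35% of all genes) and 0 fell, with a median of 1.21. Fcgr1, a high-affinity Fc receptor, was at 5.48, 5.97 and 6.54 in blank and at 7.48, 7.93 and 9.02 in estradiol arrays, a rise of 2.02 ± 0.38 (SE; adjusted p = 0.000155, limma). Trem2, a lipid-sensing receptor of macrophages, was at 5.23, 6.02 and 6.82 and at 7.09, 8.10 and 9.22, a rise of 1.91 ± 0.35 (SE; adjusted p = 0.000122, limma). At both genes every estradiol array was above every blank array. Adgre1, which encodes F4/80, rose by 1.35 ± 0.25 (SE) and Csf1r, the receptor for colony-stimulating factor 1, by 1.21 ± 0.22 (SE). Cd14, at 0.05, and Aif1, at 1.02, did not pass. The mean level of the list was 7.61 to 8.42 in blank and 8.62 to 9.78 in estradiol arrays, so the treatments did not overlap. The count was 7 with slide as a block and 9 with the marker covariates. It was 3 without the 10 arrays with a lymph node level over 8 (5 blank and 5 estradiol). Without the 12 arrays with a muscle level over 10 (7 blank and 5 estradiol) it was 0. In this last fit Fcgr1 was at 1.97, Trem2 at 1.75, Adgre1 at 1.53 and Csf1r at 1.22.

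Many matrix and stromal genes rose as well. Of 32 tested matrix and remodelling genes 16 rose (50%, against 6.35% of all genes) and 0 fell. Their median was 0.82, and at 6 of the 32 every estradiol array was above every blank array, against 174 of all 10741 genes (1.62%). Timp1, an inhibitor of metalloproteases, was at 6.97, 7.31 and 8.48 in blank and at 9.21, 9.76 and 12.21 in estradiol arrays, a rise of 2.66 ± 0.49 (SE; adjusted p = 9.96e-05, limma). Thbs1, thrombospondin 1, was not well above background in any blank array and was detected in 8 of 9 estradiol arrays, at least 2.92-fold higher (adjusted p = 3.48e-06, limma). The fibrillar collagens Col1a1 and Col3a1 rose by 1.42 ± 0.38 (SE) and 1.20 ± 0.35 (SE), and the gelatinase Mmp2 by 1.28 ± 0.21 (SE). The basement membrane collagens Col4a1, at 0.05, and Col4a2, at 0.19, did not pass. Of 10 stromal progenitor markers 6 rose (60%, against 6.35% of all genes) and 0 fell, with a median of 0.90. Cd248, endosialin, was at 10.09, 10.74 and 11.24 in blank and at 11.90, 12.88 and 13.09 in estradiol arrays, a rise of 1.98 ± 0.23 (SE), or 3.94-fold. Pdgfra, a receptor on progenitors, rose by 0.98 ± 0.18 (SE), and Pdgfrb, at -0.20, did not pass. Without the 12 arrays of high muscle level 1 matrix gene and 1 stromal marker were called, and without the 10 of high lymph node level 2 and 2. In the former fit Timp1 was at 2.99, Thbs1 at 2.28, Mmp2 at 1.53, Cd248 at 2.41 and Pdgfra at 1.32. Macrophage and stromal marker levels were higher in the estradiol arrays (stromal 10.57 to 11.58, against 10.03 to 10.85 in blank), and their part in the rise of matrix genes was not tested.

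Some endothelial markers fell. Of 11 tested, 5 fell (45.5%, against 4.87% of all genes), 0 rose and 6 did not pass, with a median of -0.36. The count was 3 under median centring. Cdh5, the cadherin of endothelial junctions, was at 9.23, 10.17 and 10.61 in blank and at 8.45, 8.66 and 9.28 in estradiol arrays, at -1.20 ± 0.19 (SE; adjusted p = 1.18e-05, limma), with a narrow overlap. Cldn5, a tight junction protein of endothelium, fell by 1.19 ± 0.20 (SE), Egfl7 by 0.62 ± 0.11 (SE), Tie1 by 0.70 ± 0.17 (SE) and Esam by 0.47 ± 0.13 (SE). One of the other probes of Egfl7 stood at 0.42 and was not called. Pecam1, at -0.30, and Vwf, at 0.42, did not pass. Without the arrays of high muscle level 0 endothelial markers were called, and without those of high lymph node level 3. In the former fit Cdh5 was at -1.18, Cldn5 at -1.11, Egfl7 at -0.59 and Tie1 at -0.67. Rgs5, a marker of pericytes, fell by 0.87 ± 0.21 (SE). Among mammary epithelium markers the only call was Trp63, the basal factor p63, at -0.86 ± 0.23 (SE), which was lost with slide as a block (adjusted p = 0.0838, limma), and the 17 differences had a median of 0.11. The lymph node, skeletal muscle, liver, blood and skin lists had 0 calls among 13, 15, 11, 6 and 2 tested genes. All 13 lymph node and all 15 muscle markers had negative differences, between -0.92 and -0.31 and between -1.68 and -0.42.

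**Figure D2:**
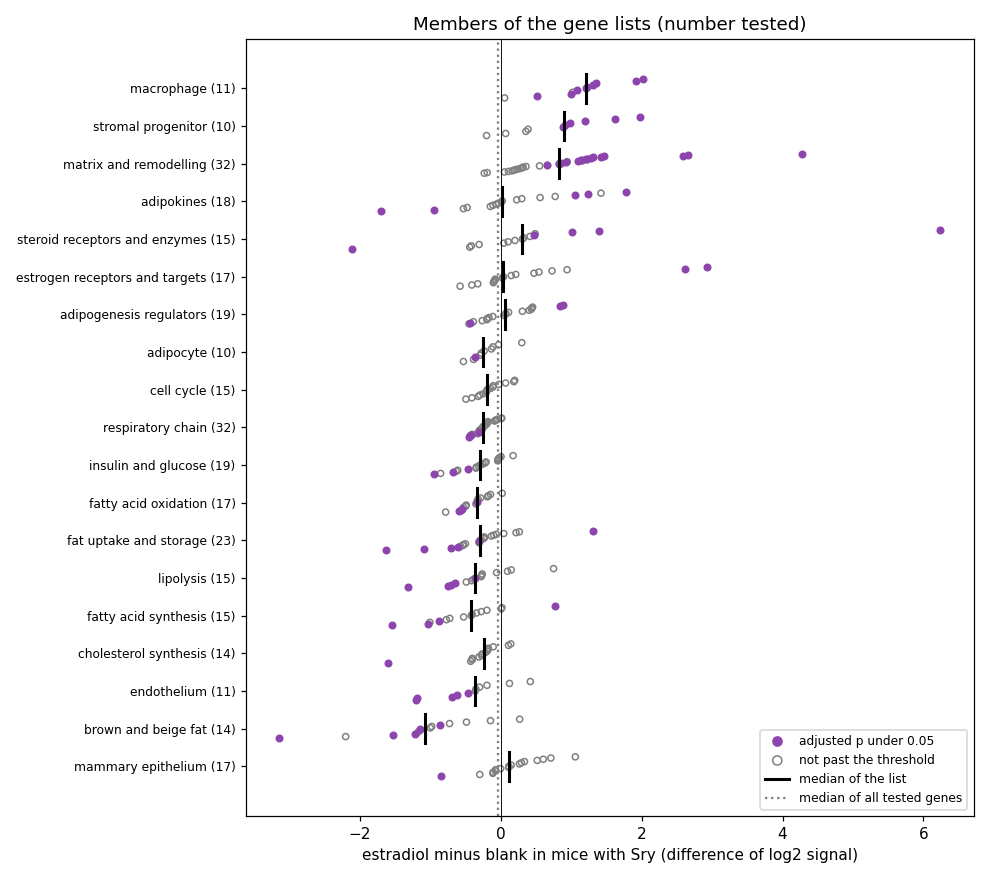
Difference between estradiol and blank (log2) of each tested member of 19 gene lists in mice with Sry, 1 point per gene. Filled points passed the adjusted p of 0.05, black bars are list medians, and the dotted line is the median of all tested genes (-0.04). Macrophage, stromal progenitor and matrix medians lie at 1.21, 0.90 and 0.82, and brown and beige fat at -1.07.

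**Figure D3:**
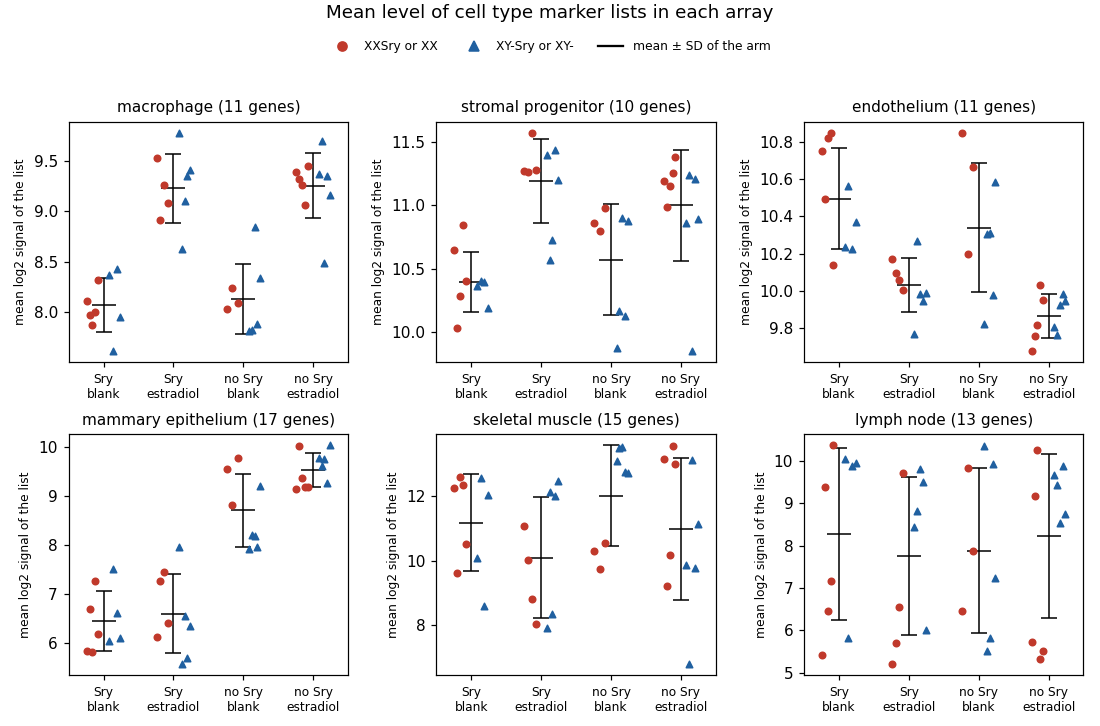
Mean log2 signal of 6 cell type marker lists in each array, with and without Sry, by blank or estradiol capsule. Circles are XXSry or XX, triangles XY-Sry or XY-, and bars give the mean and SD of 9, 9, 8 and 10 arrays. Macrophage levels with Sry are 7.61 to 8.42 in blank and 8.62 to 9.78 in estradiol arrays, while muscle and lymph node levels spread over several log2 units within each arm.

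The response was next read in each genotype, to ask whether the sex chromosomes altered it. In XXSry mice 600 probes changed (4.1%), 411 up and 189 down, and in XY-Sry mice 415 (2.84%), 287 up and 128 down. Median centring in place of quantile normalisation gave 376 (86.7% up against 68.5%) and 252 (52.8% up against 69.2%), and moved the median of all probes by 0.17 and -0.20. The balance of tissues differed too. Skeletal muscle markers had a median difference of -2.23 in XXSry and -0.30 in XY-Sry mice, and brown and beige fat genes -1.34 and -0.75. Of 14636 probes, 0 (0%) differed between the responses at an adjusted p under 0.05 (limma), and 288 at an unadjusted p under 0.05. All 1484 probes called over both genotypes had the same sign in each, a figure that partly follows from the call itself. Akr1cl rose by 6.66 ± 0.54 (SE) in XXSry and 5.82 ± 0.54 (SE) in XY-Sry mice, a difference of 0.84 ± 0.76 (SE). Among the 24 leading genes the difference between genotypes ran from -1.65 to 0.85, with SEs of 0.35 to 1.27, so that differences of around 1 log2 unit could not be resolved at several genes. The widest was at Lrtm1, at -2.82 ± 0.64 (SE) in XXSry and -1.17 ± 0.64 (SE) in XY-Sry mice. The smallest unadjusted p-values belonged to Xist, Siah2 and Sephs1, whose differences of 1.21 ± 0.29, 0.98 ± 0.26 and 0.99 ± 0.27 (SE) did not pass after adjustment. Leaving out 1 array moved the count from 296 (without XXSry E replicate 1) to 926 (without XXSry B replicate 5) in XXSry mice, and from 217 (without XY-Sry E replicate 1) to 496 in XY-Sry mice.

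**Figure D4:**
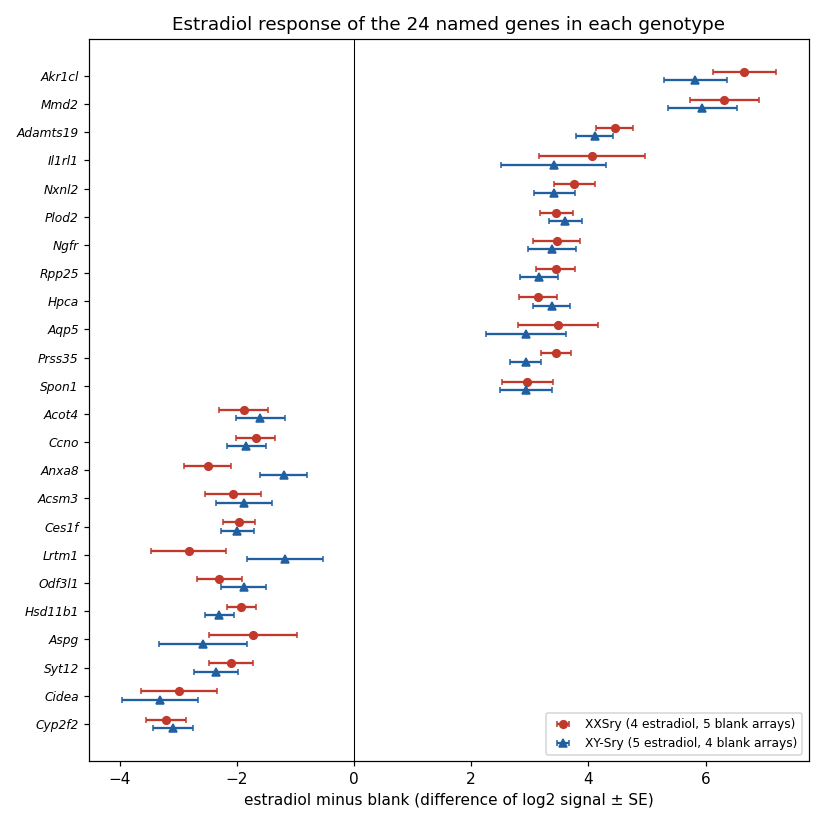
Difference between estradiol and blank (log2, with SE) of the 24 genes with the largest changes, in XXSry mice (circles) and XY-Sry mice (triangles). All 24 differences have the same sign in both genotypes, which was a condition for choosing them, and the widest gap is at Lrtm1.

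The response was compared with that of mice without Sry, XX and XY-, which had ovaries before gonadectomy and a higher mammary signal. Estradiol changed 1492 probes (10.2%) in those mice. The difference between the responses was called at 119 probes (0.813%), 37 of them more positive with Sry and 82 more negative. By gene it was 101 of 10741 (0.94%). Of the 1484 probes called with Sry, 1412 had the same sign without Sry and 720 were also called there in the same direction. Among all 14636 probes, 746 were called upward and 746 downward without Sry. The share of all probes with the same sign in both was not counted. A called difference was found at 33 of the 1484, 30 of them being larger with Sry. The 1484 were chosen by their response with Sry, which favours a larger response there, so this split partly follows from the choice.

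Ptn, pleiotrophin, a heparin-binding growth factor, responded in opposite directions. With Sry it went from 8.07 ± 0.55 (SD, n = 9) in blank to 10.64 ± 0.43 (SD, n = 9) in estradiol arrays. Without Sry it went from 12.05 ± 0.48 (SD, n = 8) to 9.96 ± 0.59 (SD, n = 10). Estradiol thus raised it by 2.64 with Sry and lowered it by 2.16 without, and the difference of 4.79 ± 0.47 (SE) had an adjusted p of 7.98e-10 (limma). The levels lay close together under estradiol and far apart under blank. Hsd11b2 rose with Sry, as given above, and was at 5.11 ± 0.36 (SD, n = 8) and 5.19 ± 0.46 (SD, n = 10) without it, a difference in measured signal of 2.08 ± 0.23 (SE; adjusted p = 2.51e-08, limma). Since its blank signals with Sry were background, this is no measure of a fold. Hsd11b1 fell by 0.87 without Sry, which was 1.24 ± 0.25 (SE) less than with it (adjusted p = 0.00238, limma). Both enzymes of glucocorticoid activation and inactivation thus moved further with Sry.

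Sftpd, surfactant protein D, Lypd3, a surface protein of epithelia, and Tmprss11a, an epithelial serine protease, did the reverse. They rose by 3.66, 2.89 and 2.71 without Sry and were at -0.04, -0.35 and 0.21 with it, none of which passed. The differences were -3.70 ± 0.41, -3.25 ± 0.37 and -2.50 ± 0.27 (SE). The mean mammary marker level was 8.71 in blank and 9.54 in estradiol arrays without Sry, and 6.46 and 6.61 with it. Without Sry the rise lay in XY- mice, at 8.30 (n = 5) in blank and 9.69 (n = 5) in estradiol arrays. XX mice were at 9.39 (n = 3) and 9.39 (n = 5). The part of mammary signal in the differences at Sftpd, Lypd3 and Tmprss11a was not tested. Dnaic1, an axonemal dynein gene, was not well above background in any of the 18 arrays with Sry and fell by 2.29 without it. Of the 12 largest increases, 4 were larger with Sry, Nxnl2 by 2.08 ± 0.35, Prss35 by 1.85 ± 0.26, Hpca by 1.84 ± 0.32 and Rpp25 by 1.53 ± 0.33 (SE). These are differences of measured signals and not of folds, since the blank signals of Hpca, Rpp25 and Prss35 with Sry were background and Nxnl2 was detected in 1 of 9 blank arrays. The 12 genes were chosen by their response with Sry, which favours a larger response there. Rpp25 missed the threshold when the array with conflicting treatment labels, XX E replicate 1, was taken as testosterone (1.51, adjusted p = 0.052, limma). All 4 also rose without Sry, by 1.34 to 1.77. Akr1cl, at 6.33 without Sry, and Mmd2, at 5.39, gave no called difference, at -0.086 ± 0.54 and 0.74 ± 0.60 (SE).

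**Figure D5:**
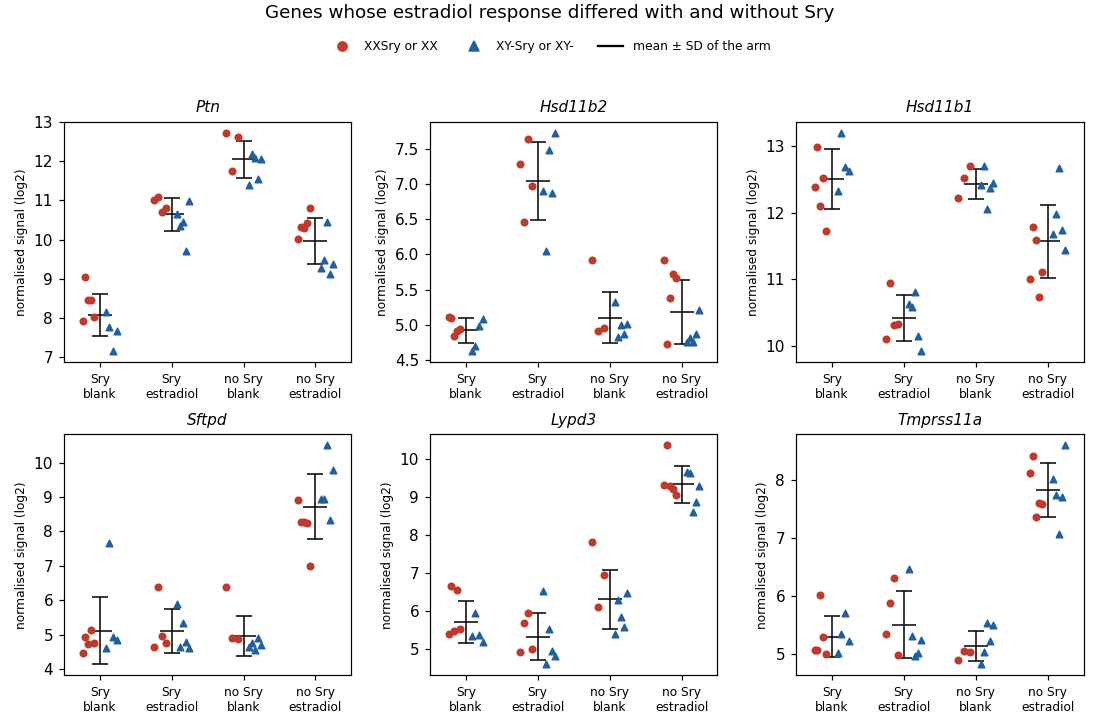
Normalised signal (log2) of 6 genes in each array with and without Sry, by blank or estradiol capsule. Circles are XXSry or XX, triangles XY-Sry or XY-, and bars give the mean and SD of 9, 9, 8 and 10 arrays. Ptn rises with Sry and falls without it, Hsd11b2 rises only in arrays with Sry (difference 2.08 ± 0.23, SE), and Sftpd, Lypd3 and Tmprss11a are high only in estradiol arrays without Sry.

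Estradiol was last set against testosterone in mice with Sry, where 10 testosterone arrays were measured. The 2 hormones differed at 924 probes (6.31%), 595 higher and 329 lower with estradiol. Median centring gave 553, of which 79.7% were higher against 64.4%. Mean marker levels of other tissues also differed between these arms. Skeletal muscle was at 10.09 under estradiol and 11.77 under testosterone, lymph node at 7.75 and 6.58, and liver at 6.56 and 7.34. The medians of these lists in the direct test were -1.78, 0.88 and -0.75, with 0 calls in each. The part of other tissues in the 924 probes was not tested. Of the 12 largest increases 11 were also called against testosterone, Il1rl1 being the exception. Of the 12 largest decreases 8 were, all but Aspg, Lrtm1, Ccno and Acot4. These genes were chosen by their values in the same estradiol arrays, so the counts partly follow from the choice. Greb1 was 3.42 ± 0.20 (SE) and Akr1cl 7.49 ± 0.37 (SE) higher with estradiol than with testosterone. The hormones share their blank arrays, so the values against blank are given side by side. Testosterone changed 520 probes (3.55%) against blank. Akr1cl stood at -1.25 with testosterone and 6.24 with estradiol, Hsd11b1 at 0.75 and -2.11, and Cidea at -1.5 and -3.15. Hp stood at 2.46 with testosterone and 1.78 with estradiol, and was 0.68 ± 0.17 (SE; adjusted p = 0.00618, limma) lower with estradiol in the direct test. The testosterone arrays include XY-Sry T replicate 1, whose liver marker level was 13.31, against a median of 6.69 in that arm. Hp and Hsd11b1 were also measured in liver, at 14.59 and 14.42 in blank arrays. The part of liver signal in these 2 values was not tested. Among macrophage markers the medians were 0.64 with testosterone and 1.21 with estradiol, and 1 of 11 was called in the direct test, Csf1r, at 0.87 (adjusted p = 0.00734, limma). Timp1 was at 2.10 and 2.66, and the direct difference did not pass (adjusted p = 0.53, limma). Among matrix genes 9 of 32 were higher with estradiol than with testosterone and 1 was lower, and among stromal progenitor markers 5 of 10 were higher. Over all 10741 genes, 463 were higher and 274 lower in that test.

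In liver of mice with Sry, with 10 arrays of each treatment, estradiol changed 201 of 11317 tested probes (1.78%), 130 up and 71 down. Of the 24 leading fat genes 9 were tested in liver, with differences from -0.48 to 0.54 and adjusted p-values from 0.0736 to 0.952 (limma). Cyp2f2, at 13.87 ± 0.13 (SD, n = 10) in blank liver, was at 14.08 ± 0.12 (SD, n = 10) with estradiol. Hsd11b1 was at 14.42 ± 0.10 (SD, n = 10) and 14.36 ± 0.13 (SD, n = 10). The tissues were normalised separately, so levels are not compared between them.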

How the data were processed

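Adipose and liver RNA was measured on 1-colour Illumina BeadChips. Per the file headers, the deposited tables hold an average bead signal (intensity, linear) and a detection p-value per probe and array. The values looked neither background-subtracted nor normalised between arrays (lowest adipose signal 92.6). The deposited p-values were used to judge detection. Per the submitters' processing notes lumi was used, with no stated role. The genome build is not given in the sources used here. The 115 columns of bead standard errors were not used.

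In limma 3.58.1 (R 4.3.3) normexp used the detection p-values to remove background on the 55 adipose arrays. After adding 16, quantile normalisation and log2 followed. The added 16 understates differences of dim probes. Probes detected (p under 0.01) in at least 3 adipose or 5 liver arrays were tested. A mean per group was fitted over all arrays of a tissue, with contrasts weighting both genotypes equally, so a contrast can differ slightly from the difference of arm means. Calls are at an adjusted p under 0.05 (Benjamini-Hochberg). Array number limits the precision. The fit was tested on simulated data. One array without Sry, XX E replicate 1, has conflicting treatment labels and was kept as estradiol.

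Members and lists were chosen with earlier results of these data known. Named genes are Esr1, Pgr, Greb1, Xist and Eif2s3y, the 12 largest called changes each way with 1 sign in both genotypes, up to 4 members per list with the smallest adjusted p, all measured mammary and brown fat genes, and the 6 and 3 smallest adjusted p-values of the response differences with Sry and between genotypes. Other list members given beside them (for example Cd14, Hcar1, Esam, Akr1c18, Col1a1 and Pecam1) were chosen after their values were seen. One further gene of the rule is not reported here. Gene names follow the RefSeq table of GRCm38.p6, which matched 14186 of the 14636 tested probes (96.9%).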

Additional observations from a re-analysis of the deposited data

Results flagged for a closer look

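In the 4 groups of mice with Sry, single arrays stood far from the rest of their group at 13 of 160 combinations of group and gene or marker list (8.12%). Chance gives about 1 in 20. XXSry E replicate 4 was the low array at Greb1 (7.56, others 8.60 to 8.76), Mmd2 (11.07, others 12.52 to 12.71), Prss35 (7.09, others 8.65 to 8.92), the adipocyte markers (11.08, others 11.45 to 11.52) and the skin markers (7.08, others 7.36 to 7.39). Esr1 was low in XY-Sry B replicate 4 (7.15, others 8.41 to 8.64). Among blank arrays Adamts19 was high in XXSry B replicate 4 (6.30, others up to 4.94), Ngfr in XY-Sry B replicate 3 (9.08, others up to 8.18) and Prss35 in XXSry B replicate 2 (5.15, others up to 4.89). Prss35 was low in XY-Sry E replicate 2 (7.21, others from 7.82). Lymph node markers were low in XY-Sry B replicate 2 (5.82, others 9.87 to 10.04). Stromal progenitor markers were high in XXSry E replicate 3 (11.58, others up to 11.28) and skin markers in XY-Sry E replicate 1 (7.87, others up to 7.12).

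The estradiol response differed with and without Sry, by the limma test of the difference itself, at 12 of the named genes. Beside Ptn (4.79), Hsd11b2 (2.08), Hsd11b1 (-1.24), Nxnl2 (2.08), Prss35 (1.85), Hpca (1.84), Rpp25 (1.53), Sftpd (-3.70), Lypd3 (-3.25) and Tmprss11a (-2.50), these were Dnaic1 at 2.27 ± 0.26 (SE; adjusted p = 3.36e-08, limma) and Anxa8 at -2.30 ± 0.40 (SE; adjusted p = 0.000296, limma). Anxa8 fell by 1.85 with Sry and stood at 0.45 without it (adjusted p = 0.382, limma).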

How the results depend on the processing

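The count of 1484 probes was 1305 to 1564 without background correction, with an added value of 50, without a filter, with a filter on 4 of the 18 arrays, on the 18 arrays alone or with slide as a random block, 1162 with slide as a fixed block and 1755 with marker covariates. Median centring gave 842 (XXSry 376, XY-Sry 252, against testosterone 553) and array weights 2966 (XXSry 2237, XY-Sry 1193, between genotypes 1, with against without Sry 274, against testosterone 1637). The slide block gave 305 in XXSry mice and the covariates 699 in XY-Sry mice. Within each of the 2 slides with both treatments 0 probes were called (limma, 793 and 2148 at an unadjusted p under 0.05), while 1407 and 1462 of the 1484 kept their sign. Among alternatives chosen after seeing the data, the 8 arrays of those slides gave 271, omitting arrays with a muscle level over 10 gave 107, and omitting those with a lymph node level over 8 gave 387. In these, 1476, 1483 and 1481 of the 1484 kept their sign. All these subsets, the single slides included, are arrays from which the 1484 were called. Agreement in sign therefore partly follows from the call itself.

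Leaving out 1 array at a time gave 1150 to 1643 probes, 296 to 926 in XXSry mice, 217 to 496 in XY-Sry mice, 0 to 0 between genotypes, 105 to 143 with against without Sry, and 709 to 1111 against testosterone. Of the named genes, Pgr (-0.029) and Elovl6 (0.096) changed sign within slide 2. No paired analysis was possible because the labels give no replicate numbers, and slide served as the block instead. Each arm lay on 5 of 8 slides, so slide and treatment are partly confounded.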
